A study of Mus musculus with 11 samples.

Results

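Claudins and their partner proteins were examined in small intestinal villi of mice that express Gremlin in the gut epithelium. The set holds 10 genes: Cldn2, Cldn3, Cldn4, Cldn7, Cldn8, Cldn15 and Cldn23 of the claudin family, Ocln (occludin), Tjp1 (zonula occludens 1) and F11r (junctional adhesion molecule A). They were selected on gene symbol in the platform's annotation, which gave 14 probes for the 10 genes, of 45281 probes and 19057 named genes on the array. Those to be measured were then chosen by detection p, which had to be under 0.01 for a probe of the gene on 5 or more arrays. Of the 10 genes 9 passed, of 8234 measured genes in all. The detection p is the share of negative control beads as bright as the probe. Each of the 9 passed on all 11 arrays, so neither genotype alone carried a gene past that limit. The genes were put together with earlier results of these data known, among them the size of the Cldn2 change, so the number of them that changed is a description and supports nothing beyond the genes themselves.

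RNA came from villi of C57Bl/6J mice aged 5 months, with 5 arrays of Villin-Gremlin mice and 6 of wild type mice. In the Villin-Gremlin mice a transgene with the Villin promoter, which is active throughout the epithelium of the intestine, drives Gremlin, a secreted protein that binds bone morphogenetic proteins (BMPs) and keeps them from their receptors. The samples were whole villi, not sorted cells. Of 12 villus enterocyte markers 10 were measured. Fabp1 and Fabp2 had probes but were above background on 0 arrays, which does not show that their RNA was absent. Whether each array stands for a separate mouse is not stated, so p-values reflect the spread among these samples only, and that spread may be technical.

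Tight junctions are belts of strands that seal the space between neighbouring epithelial cells near their apical end. Claudins are the membrane proteins that build the strands, and their mixture sets what passes between cells: some form channels for small ions and water, others close the gap. Occludin and junctional adhesion molecule A are further membrane proteins of the junction, and zonula occludens 1 is a cytoplasmic scaffold that ties claudins and occludin to actin. In the mouse small intestine, Cldn2 is known as a claudin of the crypts and of early life, whereas Cldn15 is the main channel-forming claudin of adult villi.

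Levels are log2 signals after background correction and quantile normalization across arrays. Differences are Villin-Gremlin minus wild type, given with the standard error (SE) of a limma fit across all 8234 genes, and a gene was called changed at a Benjamini-Hochberg adjusted p under 0.05. Different probes bind their targets unequally, so the level of a gene is compared between arrays and not with that of another gene. As a check of the transgene, Grem1 read 13.77 to 14.08 in Villin-Gremlin and 4.98 to 8.99 in wild type arrays, with no overlap. Wild type 5 stood apart at 8.99, against 4.98 to 6.37 on the other wild type arrays, and the cause was not tested. Between 13536 and 14808 probes per array were above background, and the median raw signal was 157 to 207. On the second principal component the arrays Villin-Gremlin 5 and wild type 1 stood away from the rest. That component held 12.0% of the variance against 53.3% for the first.

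Of the 9 measured genes, Cldn2 rose and 5 fell (Cldn4, Ocln, Cldn15, F11r and Cldn7), while Cldn3, Cldn23 and Tjp1 did not pass the test. Cldn2 and Cldn4 changed by 2-fold or more, as did 10.1% of all measured genes. Among all measured genes 33.9% were called changed, 17.9% higher and 16% lower. After normalization the 2 genotypes did not overlap for 5 of the 9 genes (Cldn2, Cldn7, Cldn15, Ocln and F11r), against 20.5% of all measured genes. In the signals as deposited, Cldn2 alone of these 5 genes kept the genotypes apart. Cldn4, whose genotypes overlapped after normalization, was also apart in the signals as deposited. Differences over the 9 genes ran from -1.75 to 4.37 with a median of -0.50, beside a median of -0.00015 over all genes. Cldn2 was 1 of the 6 genes on the array, 0.0729% of those measured, with a difference above 4 in size. In bulk villi, fewer cells of a type and less RNA per cell cannot be told apart, which touches every difference given here.

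**Figure D1:**
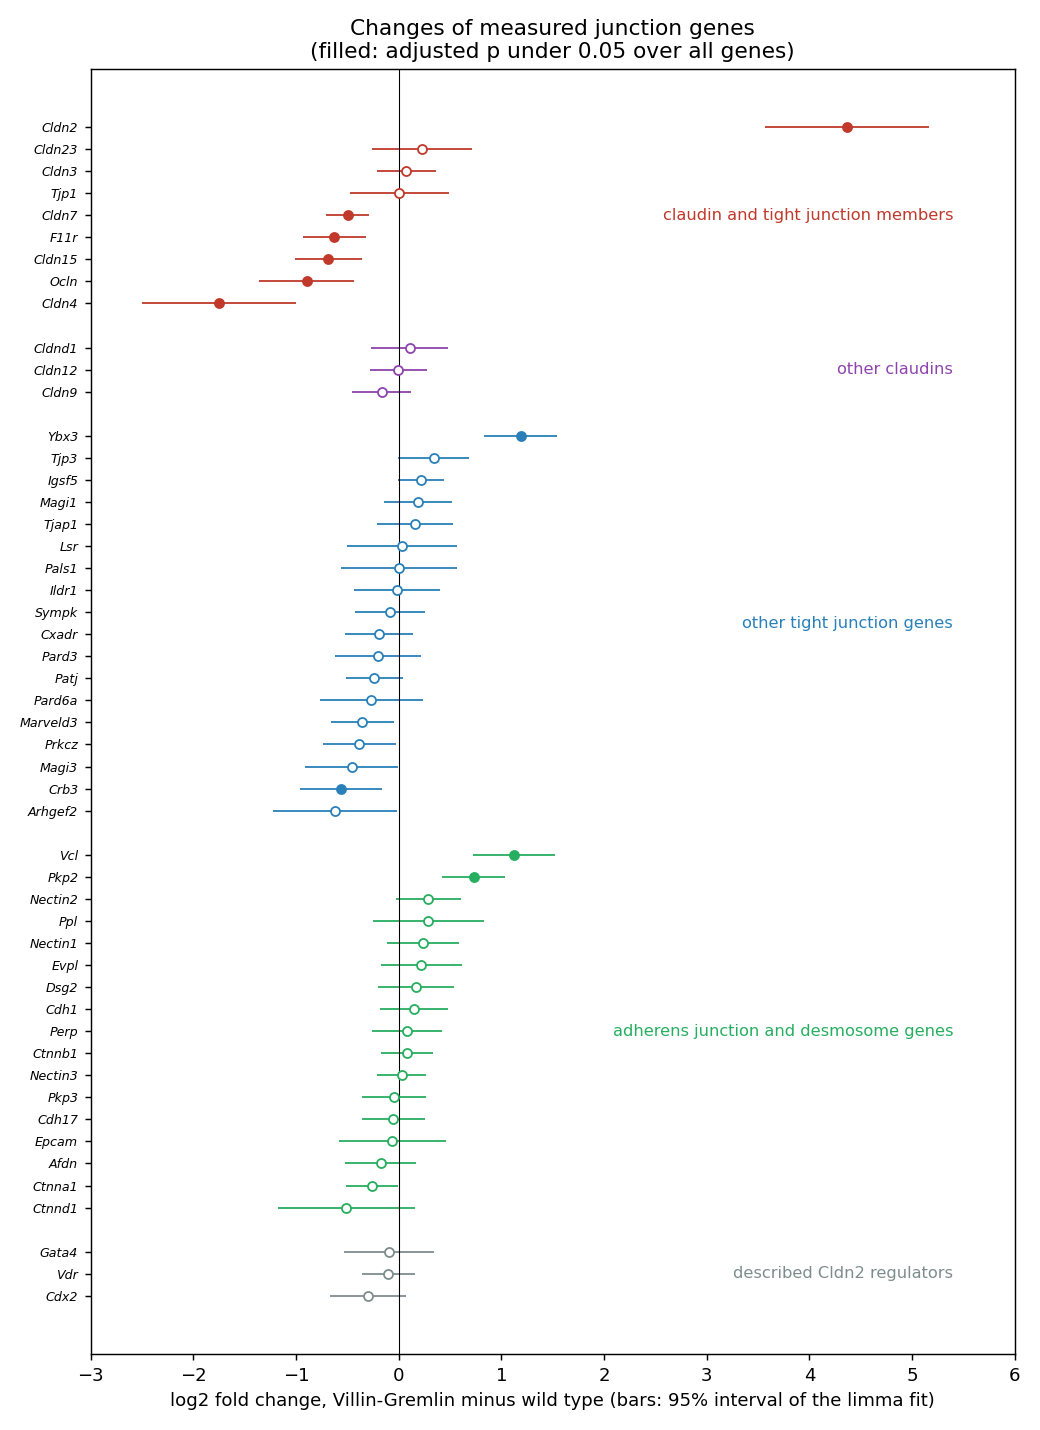
Differences in log2 signal, Villin-Gremlin minus wild type, for the 9 measured genes of the set and the measured genes of 4 further lists, with 95% intervals of the limma fit over 5 and 6 arrays and filled points where the adjusted p is under 0.05. Cldn2 stands alone at 4.37, Cldn4, Ocln, Cldn15, F11r and Cldn7 lie between -1.75 and -0.50, and most points of the other lists are open and near 0.

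The channel-forming claudins moved in opposite directions. Cldn2, which lines pores for small cations and water, read 11.18, 10.50, 12.32, 11.41 and 12.39 on Villin-Gremlin arrays 1 to 5. On wild type arrays 1 to 6 it read 6.86, 6.92, 6.68, 6.68, 7.96 and 8.04. The lowest transgenic array was well above the highest wild type array. The means were 11.56 ± 0.80 (SD, n = 5) and 7.19 ± 0.64 (SD, n = 6), a difference of 4.37 ± 0.37 (SE), or 20.6-fold, with a 95% confidence interval of 3.57 to 5.16 and a limma adjusted p of 4.83e-06. Wild type Cldn2 was low but measured, since its probe passed the detection limit on each of the 6 arrays, with raw signals of 241 to 427 against 1714 to 4067 in Villin-Gremlin. Those raw signals include background. Probes in the middle of the negative controls, at a detection p of 0.45 to 0.55, had a median raw signal of 146 to 191 per array, and with no background correction the Cldn2 difference was 3.35.

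A further Cldn2 probe gave the same direction. It read 10.63, 10.19, 11.86, 10.80 and 12.28 on the Villin-Gremlin arrays and 6.15, 6.32, 6.05, 6.01, 7.33 and 7.86 on the wild type arrays, with 5 of those 6 above background. Its difference was 4.53 ± 0.42 (SE), or 23.1-fold, with a limma adjusted p of 1.27e-05 over the 14203 kept probes, of which 30.8% were called changed. After normalization both probes were brightest on Villin-Gremlin 3 and 5 and, among wild type, on arrays 5 and 6. The Cldn2 difference was 4.09 without Villin-Gremlin 5 and wild type 1, the arrays that lay apart.

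Cldn15, a channel-forming claudin whose loss in mice enlarges the upper small intestine, fell by less than Cldn2 rose. Its brightest probe read 13.87, 13.96, 13.53, 13.96 and 13.23 on the Villin-Gremlin arrays. The wild type arrays gave 14.22, 14.55, 14.23, 14.36, 14.48 and 14.53, all above the transgenic ones. The means of 13.71 ± 0.32 (SD, n = 5) and 14.39 ± 0.15 (SD, n = 6) differed by -0.69 ± 0.15 (SE), which is 1.61-fold lower, with a confidence interval of -1.01 to -0.36 and a limma adjusted p of 0.00351. The 2 other Cldn15 probes fell by 0.61 ± 0.14 and 0.63 ± 0.16 (SE), with limma adjusted p-values over probes of 0.00625 and 0.00914. The second probe read 11.93 to 12.51 on the Villin-Gremlin and 12.69 to 13.13 on the wild type arrays, again without overlap. For the dimmest of the probes the genotypes met, since Villin-Gremlin 1 read 10.30 and wild type 1 read 10.28. The lowest values were those of Villin-Gremlin 3 and 5 for the brightest probe and of Villin-Gremlin 5 for all 3 probes. Without Villin-Gremlin 5 and wild type 1 the difference of the brightest probe was -0.60. In the signals as deposited the genotypes of the brightest probe met, at 6343 to 21080 in Villin-Gremlin and 18178 to 25692 in wild type. Those of the second probe met as well, at 2553 to 7483 and 6269 to 9845, so both gaps appeared after normalization.

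**Figure D2:**
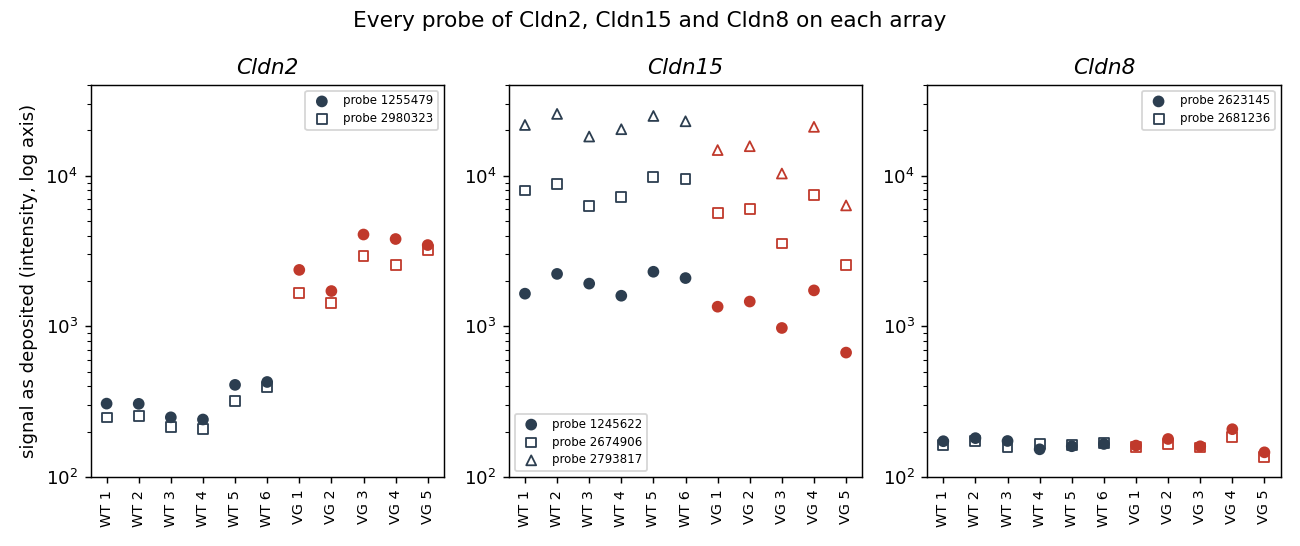
Signal as deposited (intensity, log axis), before background correction and normalization, for every probe of Cldn2, Cldn15 and Cldn8 on each wild type (WT) and Villin-Gremlin (VG) array. Both Cldn2 probes are higher on all VG arrays, the Cldn15 probes are spread widely among the VG arrays, and both Cldn8 probes stay at 136 to 208 throughout.

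The promoters of both channel-forming claudins are printed because the genes moved in opposite directions. Each window runs from 250 bases before to 50 after the start site, 5′ to 3′ on the gene's strand, from RefSeq with build GRCm38.p6. The Cldn2 window is chrX:139800558-139800857 (plus strand) and that of Cldn15 is chr5:136967619-136967918 (plus strand). Capitals mark matches, on either strand, to the motifs searched, and positions are counted from the start site, with negative numbers before it.
Cldn2: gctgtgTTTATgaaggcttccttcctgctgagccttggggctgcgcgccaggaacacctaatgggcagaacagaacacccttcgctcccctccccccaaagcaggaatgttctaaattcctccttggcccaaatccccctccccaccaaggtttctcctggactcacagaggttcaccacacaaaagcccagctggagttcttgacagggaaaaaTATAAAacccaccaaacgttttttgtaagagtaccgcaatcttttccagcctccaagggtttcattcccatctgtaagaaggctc
Cldn15: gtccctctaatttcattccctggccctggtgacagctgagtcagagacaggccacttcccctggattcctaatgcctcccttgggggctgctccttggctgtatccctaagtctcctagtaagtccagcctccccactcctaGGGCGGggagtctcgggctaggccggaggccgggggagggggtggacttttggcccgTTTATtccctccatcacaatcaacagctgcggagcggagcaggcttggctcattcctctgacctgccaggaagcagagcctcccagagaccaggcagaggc
Motifs were the TATA box (TATAAA), the CDX site (TTTAT), the GATA site (AGATAA), a BMP Smad site (GGCGCC), the GC box (GGGCGG), the Snail E-box (CACCTG) and the Grainyhead site (AACCGG). The Cldn2 window holds a TATA box whose first base lies at -35, a motif found in 13.6% of 32851 mouse promoters and in no other window of the set. It also holds TTTAT at -244 and, on the other strand, at -34, where it overlaps the TATA box. Cldn15 holds TTTAT at -51 and a GC box at -108. TTTAT occurs in 40.0% of all promoters and the GC box in 35.7%. Neither window holds GATA, Smad, Snail or Grainyhead letters, which says nothing of those factors. The matches are a description of letters, not of bound sites.

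Among the claudins counted as barrier-forming, Cldn4 and Cldn7 fell while Cldn3 and Cldn23 did not pass the test. Cldn4, which tightens epithelia against sodium, read 11.31, 11.41, 12.08, 10.64 and 12.62 on the Villin-Gremlin arrays and 14.02, 13.98, 13.13, 13.43, 13.13 and 12.50 on the wild type arrays. After normalization the groups overlapped at a single pair, Villin-Gremlin 5 and wild type 6. The Cldn4 signals as deposited did not meet, at 2319 to 4062 in Villin-Gremlin and 6044 to 19139 in wild type. With means of 11.61 ± 0.76 (SD, n = 5) and 13.36 ± 0.58 (SD, n = 6), the log2 difference of Cldn4 was -1.75 ± 0.35 (SE), 3.37-fold lower, with a confidence interval of -2.498 to -1.005 and a limma adjusted p of 0.00191. Within Villin-Gremlin, arrays 3 and 5 were again the highest, as for Cldn2, although the groups moved in opposite directions for these genes. Leaving out each array in turn gave Cldn4 differences of -2.003 to -1.51, and -1.87 without Villin-Gremlin 5 and wild type 1.

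Cldn3 is a barrier-forming claudin and the chromosomal neighbour of Cldn4, with 0 annotated genes between them on chromosome 5. It read 12.88, 12.69, 12.70, 12.85 and 12.93 on the Villin-Gremlin arrays. The wild type values were 13.00, 13.03, 12.79, 12.65, 12.54 and 12.39, which lie on both sides of the transgenic ones. The difference of 0.07 ± 0.13 (SE) had a confidence interval of -0.21 to 0.36 and a limma adjusted p of 0.704, and it changed sign under median scaling (-0.05). The neighbours were set side by side, after their own results were known, through the log2 value of Cldn4 minus that of Cldn3 on each array, whose offset between probes has no meaning but whose change between groups does. This value was -1.20 ± 0.75 (SD, n = 5, range -2.20 to -0.31) in Villin-Gremlin and 0.63 ± 0.36 (SD, n = 6, range 0.10 to 1.02) in wild type. The shift of -1.83 is a description with no test, since the pair joins a gene already called lower with one that was not called.

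The neighbours' promoters are shown because the genes lie side by side, and Cldn4 passed the test while Cldn3 did not. The Cldn4 window is chr5:134946885-134947184 (minus strand) and the Cldn3 window chr5:134985964-134986263 (plus strand), from the same RefSeq table, with capitals as above.
Cldn4: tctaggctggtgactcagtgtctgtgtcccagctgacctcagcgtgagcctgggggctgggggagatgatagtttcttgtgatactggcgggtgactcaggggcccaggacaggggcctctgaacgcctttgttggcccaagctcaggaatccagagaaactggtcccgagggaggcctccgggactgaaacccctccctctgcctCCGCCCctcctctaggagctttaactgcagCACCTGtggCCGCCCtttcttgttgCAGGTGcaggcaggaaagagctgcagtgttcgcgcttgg
Cldn3: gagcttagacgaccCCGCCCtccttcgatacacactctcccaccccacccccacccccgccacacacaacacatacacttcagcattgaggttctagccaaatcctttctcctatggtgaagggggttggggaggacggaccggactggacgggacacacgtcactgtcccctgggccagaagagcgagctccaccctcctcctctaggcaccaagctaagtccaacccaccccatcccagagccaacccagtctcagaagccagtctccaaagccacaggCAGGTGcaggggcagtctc
Both windows hold a GC box and a Snail E-box, the letters to which repressors of the Snail family are known to bind. Cldn4 has GC boxes at -44 and -5 and E-boxes at -14 and 12. Cldn3 has a GC box at -236 and an E-box at 32. The E-box letters stand in 20.2% of all promoters and in 5 of the 8 genes of the set with a window (Cldn3, Cldn4, Cldn7, F11r and Ocln). GC content was 60.7% for Cldn3 and 61.0% for Cldn4, beside 51.3% for Cldn2 and a median of 52.7% over all promoters.

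Cldn7, a claudin also found along the lateral membrane, where it binds the adhesion protein Epcam, showed the tightest values of the set. It read 10.38, 10.14, 10.20, 10.20 and 10.30 in Villin-Gremlin and 10.75, 10.84, 10.85, 10.65, 10.72 and 10.66 in wild type. After normalization all wild type arrays were higher than all transgenic arrays. The signals as deposited met, at 943 to 1759 in Villin-Gremlin and 1587 to 2366 in wild type. The difference of -0.50 ± 0.10 (SE), 1.41-fold lower, had a confidence interval of -0.71 to -0.29 and a limma adjusted p of 0.00191. Epcam itself differed by -0.06 and did not pass the test.

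Cldn23, a claudin of the differentiated gut epithelium, read 11.58, 11.32, 11.54, 11.47 and 11.88 in Villin-Gremlin and 11.98, 11.86, 11.24, 11.28, 11.05 and 10.56 in wild type. Wild type arrays spread on both sides of the transgenic values, with arrays 1 and 2 highest. The difference was 0.23 ± 0.23 (SE), with a confidence interval of -0.26 to 0.72 and a limma adjusted p of 0.470. Without wild type 1 and 2 it was 0.52, with a limma adjusted p of 0.0449, so those arrays decide the Cldn23 call. Cldn8, a barrier claudin better known from the colon and kidney, was not above background on any array for either of its 2 probes. Its raw signals were 146 to 208 and 136 to 183, with detection p-values of 0.202 to 0.911 and 0.432 to 0.912, so its change was not measurable here.

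**Figure D3:**
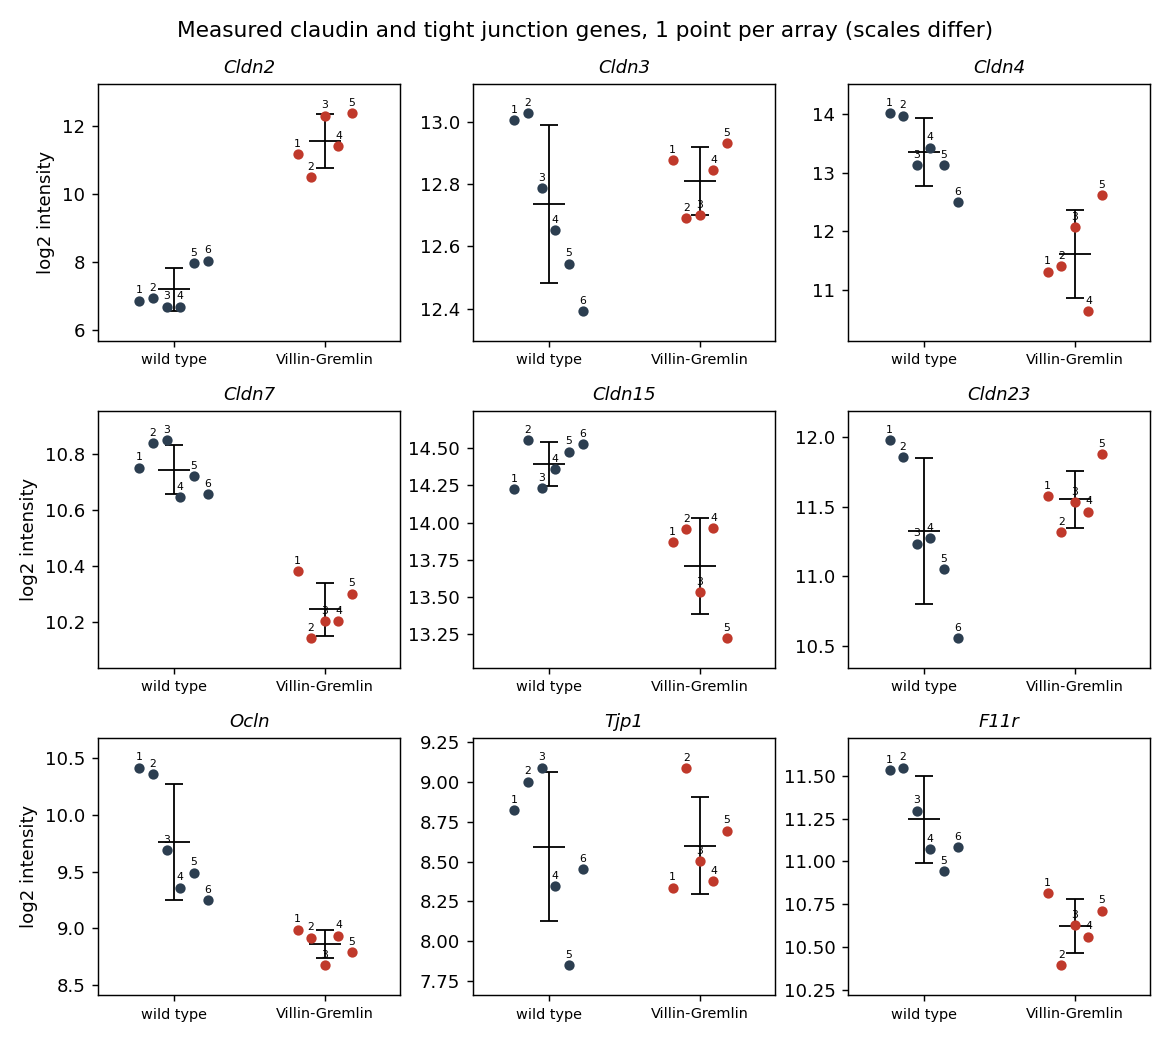
Log2 signal of each of the 9 measured tight junction genes on every array, 5 Villin-Gremlin and 6 wild type (numbered points), with group means and SDs (bars) and a scale of its own in each panel. Cldn2 has the widest gap, Cldn4 groups meet where Villin-Gremlin 5 lies above wild type 6, and Cldn3, Cldn23 and Tjp1 are interleaved.

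Of the partner proteins, occludin and junctional adhesion molecule A fell, and zonula occludens 1 did not pass the test. Ocln read 8.99, 8.92, 8.67, 8.94 and 8.79 on the Villin-Gremlin arrays and 10.42, 10.36, 9.69, 9.36, 9.49 and 9.25 on the wild type arrays. The transgenic values were close together and all below the wild type ones, among which arrays 1 and 2 stood highest. Before normalization the Ocln signals met, at 430 to 845 in Villin-Gremlin and 711 to 1793 in wild type. The difference was -0.90 ± 0.21 (SE), 1.86-fold lower, with a confidence interval of -1.36 to -0.44 and a limma adjusted p of 0.00597. Without wild type 1 and 2 the size of the Ocln difference was 0.58 on the log2 scale, downward, with a limma adjusted p of 0.00797.

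F11r, an immunoglobulin-like adhesion molecule of the junction, read 10.82, 10.39, 10.63, 10.56 and 10.71 in Villin-Gremlin and 11.53, 11.55, 11.30, 11.07, 10.95 and 11.08 in wild type. The groups did not overlap, though Villin-Gremlin 1 and wild type 5 were close. Before normalization the F11r signals met, at 1191 to 2192 in Villin-Gremlin and 2072 to 3731 in wild type. The difference was -0.63 ± 0.14 (SE), 1.54-fold lower, with a confidence interval of -0.93 to -0.32 and a limma adjusted p of 0.00405.

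Tjp1 read 8.34, 9.09, 8.50, 8.38 and 8.69 in Villin-Gremlin and 8.82, 9.004, 9.09, 8.35, 7.85 and 8.45 in wild type, with no separation of the groups. The difference of 0.0068 ± 0.22 (SE) had a confidence interval of -0.47 to 0.49 and a limma adjusted p of 0.985, and its sign depended on the setting. The membrane protein and its scaffold were set side by side on each array as Ocln minus Tjp1, again a called and an uncalled gene, so with no test. That value was 0.26 ± 0.34 (SD, n = 5) in Villin-Gremlin and 1.17 ± 0.43 (SD, n = 6) in wild type, with ranges of -0.17 to 0.65 and 0.60 to 1.64 that met at their ends. The shift between the means was -0.91.

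The arrays of each genotype also differed among themselves in a way that several genes shared. Cldn3, Cldn4, Cldn23, Ocln and F11r were each higher on wild type 1 and 2 than on the other 4 wild type arrays. Cldn7 did not follow that order, and Cldn2 was instead highest on wild type 5 and 6. Within Villin-Gremlin, arrays 3 and 5 held the highest values of Cldn2 and Cldn4 and the lowest of Cldn15. In the signals as deposited this held for Cldn4 and Cldn15. For the brighter Cldn2 probe, Villin-Gremlin 4 (3796) then exceeded Villin-Gremlin 5 (3462). Arrays 3 and 5 also had the lowest median raw signals of all 11 arrays (167 and 157). The part of signal level in this order was not tested. Leaving out wild type 1 and 2 together, a choice made after seeing the data, kept the 6 calls and added Cldn23. Without Villin-Gremlin 5 and wild type 1 the 6 calls also held, with differences of -0.75 for Ocln, -0.59 for F11r and -0.51 for Cldn7.

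**Figure D4:**
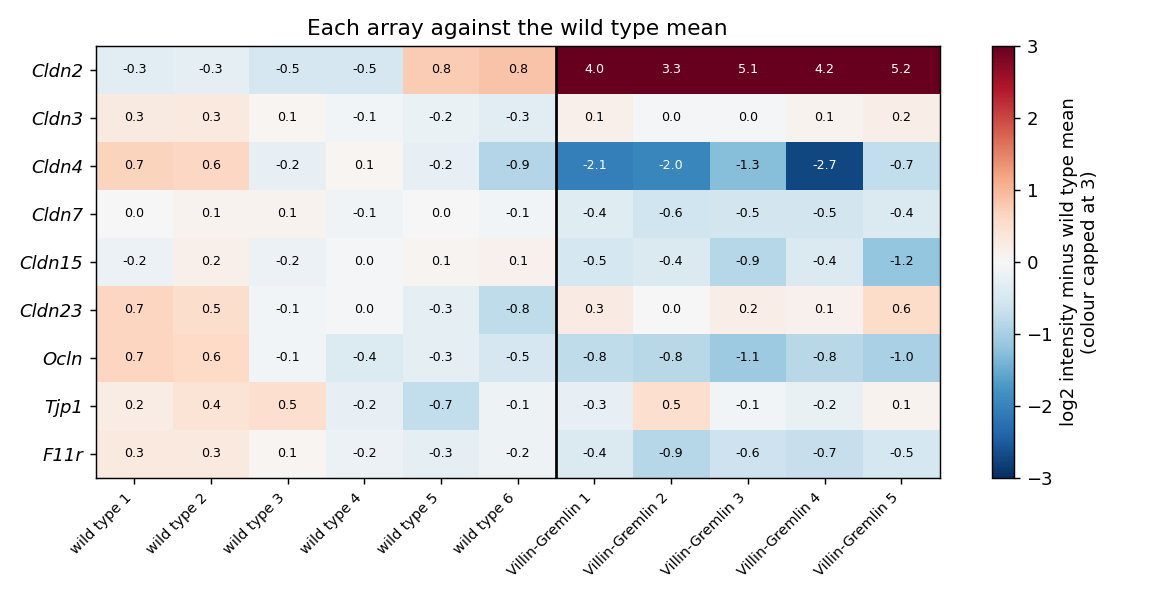
Log2 signal of each measured gene of the set on every array minus the wild type mean of that gene, printed in each cell and shown by colour (capped at 3). Wild type 1 and 2 are above the wild type mean for Cldn3, Cldn4, Cldn23, Ocln and F11r, and within Villin-Gremlin arrays 3 and 5 hold the highest Cldn2 and Cldn4 and the lowest Cldn15.

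Markers of other cells and of position along the gut were counted beside all measured genes. Of those, 33.9% were called, 17.9% higher and 16% lower. The detection limit of 5 arrays could be met by the arrays of 1 genotype alone. A marker near background in 1 genotype could thus enter only where it was higher in the other. Counts of changed markers can therefore be tilted toward change, as can the share over all genes. Of 7 measured crypt stem cell and transit amplifying markers, 6 rose, with a median difference of 1.27. Among them, Lrig1 rose by 1.28 ± 0.17 (SE, limma adjusted p 1.24e-04, but by 0.74 with no background correction) and Top2a by 1.22 ± 0.19 (SE, limma adjusted p 3.77e-04, but by 0.48 with no background correction), while Lgr5, Ascl2 and Smoc2 were above background on 0 arrays. The summed level of the crypt markers was 11.09 to 12.19 in Villin-Gremlin and 9.89 to 10.85 in wild type (log2). It was highest within Villin-Gremlin on arrays 3 and 5 (11.85 and 12.19) and within wild type on arrays 5 and 6 (10.57 and 10.85), the same arrays on which Cldn2 was highest. A sum of linear values is set mainly by its brightest markers, and neither named marker kept that order throughout. Within Villin-Gremlin, Lrig1 was highest on array 3 (8.79) but lowest on array 5 (8.23). Top2a, not above background on all 11 arrays, was highest there on arrays 3 and 5 (7.73 and 7.39). Within wild type, Top2a was lowest on array 5 (5.73), and both markers were highest on array 6 (7.82 and 6.83). The match within Villin-Gremlin was not particular to crypt markers. The summed level of proximal small intestine markers was also highest there on arrays 3 and 5 (15.64 and 15.81), but within wild type on array 4 (14.67). The part of crypt cells or of position along the gut in the Cldn2 difference was not tested.

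Of 8 measured markers of the proximal small intestine, 4 rose and 4 did not pass the test, among them Gata4 at -0.10 (log2). The summed level of the 8 was 15.12 to 15.81 in Villin-Gremlin against 13.49 to 14.67 in wild type. The 2 with the smallest p were Slc40a1, the iron exporter of duodenal enterocytes, and Cybrd1, the duodenal ferric reductase. Slc40a1 was 8.80-fold higher (limma adjusted p 0.00127). Cybrd1 was at least 6.67-fold higher (limma adjusted p 2.78e-04) and not above background on any wild type array. The fitted log2 difference of Cybrd1 was 3.98, and 1.97 with no background correction. Wild type 1 was the lowest wild type array for Slc40a1, at 8.32 against 10.41 to 12.17 on the others. It was also the lowest for the listed markers Pdx1 (5.56 against 9.58 to 10.15) and Ttr (6.07 against 7.57 to 7.88). For Gata4 it was not (7.90 against 7.47 to 8.58). Without wild type 1 and Villin-Gremlin 5 the log2 difference of Slc40a1 was 2.48 in place of 3.14. Of 10 measured villus enterocyte markers 5 fell, with Dpp4 lower by a log2 difference of -1.39 ± 0.14 (SE, limma adjusted p 1.47e-05), and the summed level was 17.25 to 17.44 against 17.71 to 17.89. T cell and intraepithelial lymphocyte markers fell in 8 of 9 measured genes, with a summed level of 12.46 to 12.92 against 13.56 to 14.20, while Cd8a, Cd247 and Gzmb were above background on 0 arrays. Of 8 measured Paneth and goblet cell markers 2 rose and Clca1 fell, near the 33.9% called over all measured genes. Their summed levels overlapped, at 16.69 to 16.78 in Villin-Gremlin against 16.62 to 16.93 in wild type.

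Markers of 3 further sources gave 0 calls by limma, also 0 at an unadjusted p under 0.05, and their summed levels overlapped between genotypes. Of 10 stromal and smooth muscle markers 3 were measured, at 6.84 to 10 in Villin-Gremlin against 8.62 to 12.80 in wild type (log2). Dcn differed by -1.47 ± 0.73 and Des by -1.002 ± 0.51 (SE), and Col1a1, Col1a2 and Cnn1 were above background on 0 arrays. Of 10 endothelial markers Tek alone was measured, at 6.09 to 6.78 against 6.21 to 6.84, with Pecam1, Cdh5 and Kdr on 0 arrays. Of 7 markers of the distal intestine and colon 2 were measured, Car4 and Aqp8, at 9.39 to 12.15 against 10.77 to 12.56, with Slc10a2, Car1 and Hoxb13 on 0 arrays. Car4 differed by -0.39 and Aqp8 by 0.28 (log2). The part of any of these shifts in the claudin, Ocln and F11r differences was not tested.

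The remaining junction genes were counted beside the 33.9% of all measured genes that were called. Of 18 other claudins and claudin-like genes listed, 14 had a probe and 3 were measured, and 0 passed limma's adjusted p, nor did any reach an unadjusted p under 0.05. Cldn9 differed by -0.17, Cldn12 by -0.01 and Cldnd1 by 0.10, with a median of -0.01. Cldn1, Cldn5, Cldn6, Cldn10, Cldn11, Cldn13, Cldn14, Cldn16, Cldn17 and Cldn19 were above background on 0 arrays and Cldn18 on 1. Of 18 measured other tight junction genes, 1 rose and 1 fell, with a median of -0.14. With the mean of a gene's probes 1 rose and 3 fell, since Arhgef2 (-0.72, limma adjusted p 0.00230) and Prkcz (-0.65, limma adjusted p 0.00340) were then called lower. Magi3 was called lower without Villin-Gremlin 5 (-0.63, limma adjusted p 0.0218) and Arhgef2 without wild type 5 (-0.80, limma adjusted p 0.0252). These 3 genes were picked after their values were seen. Ybx3, the junction-associated Y-box protein that binds zonula occludens 1, rose by 1.19 ± 0.16 (SE), 2.28-fold, with a limma adjusted p of 1.74e-04 and no overlap of the groups. Crb3, an apical polarity protein, fell by 0.56 ± 0.18 (SE), 1.48-fold, with a limma adjusted p of 0.0312. The Crb3 call ended when any of 6 single arrays was left out (Villin-Gremlin 2, 4 or 5, wild type 2, 4 or 5), with adjusted p-values of 0.0560 to 0.0797.

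Of 17 measured genes of adherens junctions and desmosomes, 2 rose and 0 fell, with a median of 0.08. Without Villin-Gremlin 5, Ctnnd1 (p120 catenin, which binds cadherins) was called lower as well, at -0.85 (limma adjusted p 0.00391) in place of -0.51 (limma adjusted p 0.222). Vinculin (Vcl), which links adhesion sites to actin, rose by 1.13 ± 0.18 (SE), 2.18-fold, with a limma adjusted p of 5.38e-04. The desmosomal plaque protein plakophilin 2 (Pkp2) rose by 0.73 ± 0.14 (SE), 1.66-fold, with a limma adjusted p of 0.00171, and neither gene's groups overlapped. E-cadherin (Cdh1) differed by 0.15 and beta-catenin (Ctnnb1) by 0.08, and neither passed the test.

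The 3 transcription factors examined as described regulators of Cldn2 did not pass the test. Cdx2, the intestinal homeobox factor, differed by -0.30 ± 0.17 (SE), with a confidence interval of -0.67 to 0.07 and a limma adjusted p of 0.204. The difference was -0.10 ± 0.20 for Gata4 and -0.10 ± 0.12 for the vitamin D receptor Vdr (SE), with limma adjusted p-values of 0.747 and 0.541. All 3 had an unadjusted p above 0.05.

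The genes with the pattern most like Cldn2 over the 11 arrays were Akr1b8, Prss27 and Ddah1, at root mean square differences of 0.598, 0.674 and 0.692 between gene-centred log2 values. They encode an aldo-keto reductase, a serine protease and an enzyme that degrades methylated arginine. Akr1b8 was higher in Villin-Gremlin by 3.92, Prss27 by 3.39 and Ddah1 by 3.43 (log2). Their wild type signals were near background, and with no background correction these differences were 2.20, 1.66 and 1.52. No wild type array had Ddah1 above background, so its change is a bound of at least 5.50-fold. Nearest to Cldn4 were AA986860, the transcription factor Jun and the lipase Abhd2, at 0.350, 0.390 and 0.420. They were lower in Villin-Gremlin, with log2 differences of -1.39, -1.72 and -1.22, and 2 of the 5 Villin-Gremlin arrays had AA986860 above background. With no background correction AA986860 differed by -0.56. The likeness was measured over all arrays, so it is set mainly by the difference between genotypes.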

How the data were processed

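RNA of mouse villi was measured on 11 Illumina bead arrays. Per the labels' protocols, total RNA was extracted with a Qiagen RNeasy micro kit including DNase treatment and labelled with the Ambion MessageAmp kit. The deposited signal table holds, per the file headers, a mean bead intensity and a detection p-value per probe, and the deposited values were neither background-subtracted nor normalized. A second deposited table holds the authors' log2 values, whose background step and normalization are not given in the sources used here. It was used as an alternative. Its scale and columns were checked against the signals of the same arrays.

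Background correction, log2 transformation and quantile normalization used limma 3.58.1 (neqc, offset 16, background taken from the detection p-values) in R 4.3.3. The detection limit given in the results left 14203 probes. The kept probe with the highest mean represented its gene. Genotypes were compared with lmFit and eBayes, without covariates, and Benjamini-Hochberg adjustment ran over all 8234 genes or all kept probes. The script was tested on simulated data. A fold written as "at least" sets the brighter group against the detection floor of each array, for genes that no array of the dimmer group detected. The number of arrays limits the precision. Summed levels add a list's measured linear values per array.

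Symbols came from the platform's annotation: 34885 probes had 1 symbol, 18 several and 10378 none, and 18992 of 19057 gene identifiers were in the RefSeq table. Promoters came from RefSeq, GRCm38.p6, with 10 windows for 8 of the 10 genes. The members and lists were chosen with earlier results of these data known. Named were the 10 genes of the set, up to 6 changed genes per junction list, the Cldn2 regulators (a further listed gene is not reported here), the 2 marker genes with the smallest p per marker list and defining markers with no kept probe. The 3 genes nearest to each changed member with a log2 change of at least 1 were also named. Other list genes with values were picked after their values were seen.

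The alternatives omitted the background correction, raised the offset to 50, scaled by the median, took the authors' log2 values, dropped or tightened the detection filter, averaged the probes of a gene, weighted arrays, used a trended robust prior or a replicate block (by the number in the title or the description), or left out arrays.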

Additional observations from a re-analysis of the deposited data

Results flagged for a closer look

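A single value among the tight junction probes stood far from the rest of its group. For the dimmest of the 3 Cldn15 probes, Villin-Gremlin 5 read 9.67 (log2), whereas the next lowest Villin-Gremlin array read 10.18. The gap was 0.805 of the group's range, beyond Dixon's critical value for 5 arrays. This was 1 of 24 probe and genotype combinations examined, and chance alone marks about 1 in 20. Villin-Gremlin 5 was also lowest for the other 2 Cldn15 probes, at gaps of 0.368 and 0.415 of the range, within the limit.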

How the results depend on the processing

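The 6 changed genes of the set kept direction and call under all 24 alternatives, of which 11 left out a single array. Cldn2 ranged from 3.35 (no background correction) to 4.63. The array files carry no slide or position, so a batch term was not run. The replicate numbers of the sample titles did not pair the arrays (correlations of deviations -0.20 to 0.11, 1 of 5 above 0.1). The descriptions number the Villin-Gremlin arrays 1 higher, and these numbers did not pair them either (-0.15 to 0.10, 1 of 5 above 0.1). As a block, the title's number leaves wild type 6 without a partner and the description's number wild type 1. The differences therefore equalled those without that array, at 4.54 and 4.30 for Cldn2, with other standard errors. With the title's number as a block 2236 genes were called, and 2323 with the description's number, a block added after the data were seen. The 6 calls of the set held in both, but the dimmest Cldn15 probe passed no longer with the title's block (-0.60, limma adjusted p over probes 0.0632), the only called probe of the set to lose its call under an alternative that measured it. Over all genes, 2136 to 3040 were called, beside 2792. Median scaling moved the median of all genes by -0.09 and the share of calls that were higher from 52.9% to 43.0%. Changed other tight junction genes numbered 1 with no background correction or without wild type 1 and 2, 4 with the mean of a gene's probes (1 higher, 3 lower), and 1 to 2 with single arrays left out (main value 2). Adherens junction and desmosome genes numbered 4 with array weights and 4 without Villin-Gremlin 5 and wild type 1 together (3 higher, 1 lower in each, with Nectin2 higher and Ctnnd1 lower), and 2 to 3 with single arrays left out (main value 2, 0 lower). Signs turned for genes that passed no test. Cldn3 was -0.053 under median scaling. Tjp1 was -0.0031 with no background correction, -0.076 under median scaling, -0.032 with array weights and -0.022 with the title's block, and -0.14 to 0.11 with single arrays left out. Gata4 was 0.0026 with that block and -0.22 to 0.0043 with single arrays left out. Car4 was 0.077 without Villin-Gremlin 5 and wild type 1, and -0.65 to 0.17 with single arrays left out. Aqp8 was -0.021 without wild type 1 and 2, -0.18 with the description's block, and -0.18 to 0.64 with single arrays left out. Crb3 also lost its call with no background correction (-0.27, limma adjusted p 0.0516), with no detection filter (0.0565), with the title's block (0.0681), without Villin-Gremlin 5 and wild type 1 (0.0767) and without wild type 1 and 2 (0.0773). Clca1 lost its call without Villin-Gremlin 3 (limma adjusted p 0.0511). Dcn and Des passed with the title's block, at -1.92 and -1.26, and Dcn also without wild type 6. The causes were not tested. Signals near background limit Cldn8 and wild type values of Cldn2's dimmer probe.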
